A study of Mus musculus with 5 samples.

Results

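The regions described here carried a peak of H3K27me3 in dermal fibroblasts at E18.5 and none at E14.5. They were chosen by presence alone. Overlapping peaks of 4 lists, 2 from E14.5 and 2 from E18.5, were merged on chromosomes 1 to 19, and a merged region was kept when an E18.5 list held a peak in it and neither E14.5 list did. The rule kept 1319 of 24721 merged regions. Of these, 137 were called in each E18.5 library and 1182 in only one of them. A stretch of chromosome 5, chr5:14900001-17500000, held 95 of the regions and is described apart. Outside it lay 1224 regions, 81 of them in both E18.5 libraries, 880 in replicate 1 only and 263 in replicate 2 only. Since presence in these lists chose the regions, their number and peak strength are given as a description with no test, and 2 libraries against 2 could not give an exact two-sided permutation p below 0.333.

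Both groups were wild-type mouse dermal fibroblasts, prepared from embryonic skin, grown in culture and precipitated with an antibody against H3K27me3, and no treatment or allele separates the groups. The sample labels place the first pair at embryonic day 14 and the second at day 17, where the study's text speaks of E14.5 and E18.5, and the text's names are used here. A culture of dermal cells is a mixture of fibroblast lineages and may hold other skin cells, and the labels do not say how many embryos went into a library. On these chromosomes 21331 and 15512 peaks are listed for E14.5, against 10316 and 7008 for E18.5. The lists hold no read counts. The study's methods name a nominal read depth for its samples, but the depth of each of these libraries is not given. A missing peak may lie just under the threshold of its list. Among the 7 fibroblast markers read (Col1a1, Col1a2, Col3a1, Pdgfra, Twist2, Prrx1 and Vim), 0 were marked within 3000 bp of a start site in any of the 4 lists. Of 6 keratinocyte markers, 3 (Cdh1, Epcam and Grhl2) were marked there in all 4. The counts in all 4 libraries were 1 of 4 for endothelial markers (Kdr), 2 of 4 for muscle markers (Myod1 and Pax7) and 0 of 4 for immune markers. Near the start of another muscle marker, Myf5, the E14.5 peaks covered 3359 and 463 bp and the E18.5 peaks 0 and 0 bp. The mark at a start site is not a measure of expression.

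H3K27me3 is the trimethylation of lysine 27 of histone H3, placed by the Polycomb repressive complex PRC2 and removed by demethylases such as Kdm6b. In development it lies over the promoters and bodies of silent regulatory genes, often as wide domains that start in CpG-rich sequence and spread outwards. A broad peak caller reports each stretch where precipitated fragments exceed the local background. A domain can therefore be reported as several neighbouring peaks with gaps between them.

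A few sequences show what kinds of DNA the regions covered. They come from RefSeq, build GRCm38, and CpG dinucleotides are in capitals in the first group. The promoters of Dkk2, Adgrl3 and Lrrc8d are shown because these genes had a region in both E18.5 libraries at a start site and no E14.5 peak within 100 kb. The Speer4c promoter is shown as a start site inside the chromosome 5 stretch. The last is the middle of the region with the highest mean percentile of fold enrichment among the 81, which lies outside any annotated gene.
Dkk2 promoter, chr3:132085042-132085341, plus strand: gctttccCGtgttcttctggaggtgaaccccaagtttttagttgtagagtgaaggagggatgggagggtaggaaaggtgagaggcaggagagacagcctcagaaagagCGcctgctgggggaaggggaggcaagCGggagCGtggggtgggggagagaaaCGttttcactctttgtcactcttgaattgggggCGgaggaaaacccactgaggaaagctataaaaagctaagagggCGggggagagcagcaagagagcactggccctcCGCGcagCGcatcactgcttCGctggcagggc
Adgrl3 promoter, chr5:81021343-81021642, plus strand: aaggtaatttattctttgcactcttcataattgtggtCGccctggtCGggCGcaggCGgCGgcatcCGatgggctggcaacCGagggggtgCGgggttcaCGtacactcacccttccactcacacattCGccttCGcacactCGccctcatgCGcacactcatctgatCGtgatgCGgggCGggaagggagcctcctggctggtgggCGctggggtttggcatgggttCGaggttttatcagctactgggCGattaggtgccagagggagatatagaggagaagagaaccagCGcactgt
Lrrc8d promoter, chr5:105700560-105700859, plus strand: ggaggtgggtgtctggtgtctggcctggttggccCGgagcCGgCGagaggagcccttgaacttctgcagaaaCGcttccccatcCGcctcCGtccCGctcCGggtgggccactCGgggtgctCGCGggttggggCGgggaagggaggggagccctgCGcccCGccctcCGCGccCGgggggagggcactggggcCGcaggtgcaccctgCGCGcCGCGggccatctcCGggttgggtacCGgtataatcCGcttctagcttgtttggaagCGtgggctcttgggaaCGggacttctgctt
Speer4c promoter, chr5:15714222-15714521, minus strand: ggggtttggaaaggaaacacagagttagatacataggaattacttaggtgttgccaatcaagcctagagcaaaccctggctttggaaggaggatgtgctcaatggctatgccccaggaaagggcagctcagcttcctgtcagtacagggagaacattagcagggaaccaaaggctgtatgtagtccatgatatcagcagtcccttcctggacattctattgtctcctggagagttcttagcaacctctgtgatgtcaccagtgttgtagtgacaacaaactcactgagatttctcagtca
Intergenic region, chr1:35530986-35531285, plus strand: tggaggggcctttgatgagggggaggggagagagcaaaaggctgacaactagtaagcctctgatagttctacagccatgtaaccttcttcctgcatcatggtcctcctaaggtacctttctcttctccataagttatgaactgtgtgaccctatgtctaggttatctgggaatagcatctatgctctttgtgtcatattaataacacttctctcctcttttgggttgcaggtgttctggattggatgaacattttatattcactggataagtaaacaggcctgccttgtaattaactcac
The Dkk2 window holds 11 CpG, the Adgrl3 window 20 and the Lrrc8d window 27, while the Speer4c window and the intergenic window hold 0. Among 32851 RefSeq promoter windows of 300 bases (250 before and 50 after a start site), the median was 7 CpG, and 41.4% held at least as many as Dkk2, 26.5% as many as Adgrl3 and 15.5% as many as Lrrc8d. The Dkk2 and Speer4c windows overlap their regions, the Adgrl3 window ends 9 bp before its region, and the Lrrc8d window ends 57 bp before its region.

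Few E18.5 regions lacked an E14.5 peak. Of 8717 regions with a peak in an E18.5 library, 15.1% had none at E14.5, and of 4522 regions called in each E18.5 library the share was 3.03%. Both shares include the chromosome 5 stretch, which held 56 of the 137 regions behind the second. In the other direction, 3892 regions were called in each E14.5 library and absent from the E18.5 lists, and 4228 were called in all 4. The lists of E14.5 are longer, which enters these counts directly.

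The E18.5-only regions were mostly narrow, and their peaks were mostly near the threshold of their lists. Among the 81 regions outside the stretch in both E18.5 libraries, the median width was 1240 bp (quartiles 747 and 1710), the narrowest was 248 bp and the widest 6228 bp. Regions in replicate 1 only had a median of 464 bp and those in replicate 2 only 444 bp. By comparison, regions with a peak in all 4 libraries had a median width of 5170 bp and those in both E14.5 libraries only 1710 bp. Regions in a single E14.5 library, with a median of 676 bp (quartiles 404 and 1040), lay between the single-library E18.5 classes and the 81. A merged region can be wider than any peak in it, and the contrast was smaller for single peaks. In replicate 1 and replicate 2, peaks of the 81 had median widths of 920 and 734 bp. Peaks in regions with an E14.5 peak had 1040 and 1090 bp, and single-library peaks outside the stretch 464 and 444 bp.

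Strength was read as the percentile of a peak's fold enrichment within its own list. In the replicate 1 list, peaks of the 81 regions had a median percentile of 32.5 (quartiles 10.9 and 48.8), and in the replicate 2 list 21.4 (quartiles 5.69 and 38.3). Peaks in regions that also had an E14.5 peak had median percentiles of 53.7 and 52.5. None of the 81 regions had a peak in the top 10% of either list, against 1032 and 706 peaks in regions with an E14.5 peak. Peaks found in replicate 1 only and replicate 2 only had medians of 21.4 and 18.3. Over the 81 regions the percentiles of the 2 libraries had a Spearman rho of 0.65, and over the 56 such regions of the stretch 0.62. Both are descriptions, since each point was selected to have a peak in both lists. The 81 include 10 regions with percentiles of at most 1.11 in both lists, and rho was not computed without them.

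**Figure D1:**
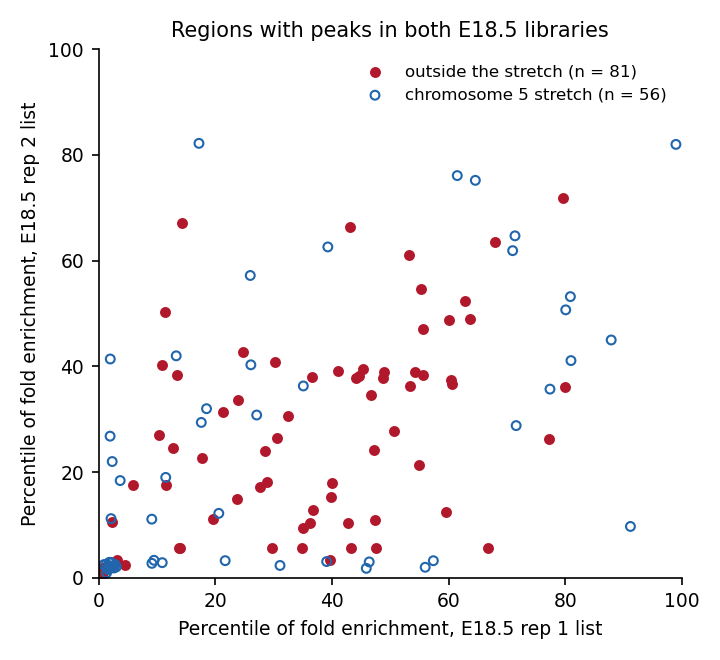
Percentile of fold enrichment in the E18.5 replicate 1 list (horizontal) and the replicate 2 list (vertical) for the E18.5-only regions called in both lists. Filled points are the 81 regions outside the chromosome 5 stretch, with medians of 32.5 and 21.4, and open points the 56 regions inside it, many of which lie close to 0 in both lists.

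The threshold of the lists ran through this class. Of the 1319 regions, 939 (71.2%) had a −log10 q under 3 in every E18.5 library with a peak. The lowest values were 2.12 in replicate 1 and 2.09 in replicate 2. Of all peaks, 41.8% in the replicate 1 list and 39.6% in the replicate 2 list were under 3. For peaks of the 81 regions the shares were 46.9% and 68.7%, and for single-library peaks outside the stretch 77.4% and 79.8%. Peaks of E18.5-only regions in the stretch had 15.5% and 25.8%. Just outside the rule lay 157 regions with peaks in both E18.5 libraries and a single E14.5 library, 128 through E14.5 replicate 1 and 29 through replicate 2. Their E14.5 peaks had a median −log10 q of 3.39, the lowest at 2.15, and 54 of them (34.4%) were under 3. Without E14.5 replicate 1, whose list is the longest, 239 regions outside the stretch had peaks in both E18.5 libraries and no E14.5 peak, in place of 81. Without E14.5 replicate 2 there were 111.

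Outside the stretch, 72.2% of the regions lay within 10000 bp of an E14.5 peak. Some settings raised this share, to 75.6% at most, and others lowered it. It was 39.7% with lists of equal length, 40.6% with peaks merged within 3000 bp, 46.6% for peaks of at least 1000 bp, and 12.1% for peaks with a −log10 q of at least 5 in all lists, where the median distance was 137000 bp in place of 2800 bp. With the lists as deposited, the window of 10000 bp held 46 of the 81 regions in both libraries (56.8%), 634 of 880 in replicate 1 only (72.0%) and 204 of 263 in replicate 2 only (77.6%). E14.5 peaks widened by that distance cover 12.9% of chromosomes 1 to 19. Within 3000 bp the shares were 34.6%, 51.0% and 56.3%, where 6.48% of the chromosomes lie. The median distance was 6360 bp for regions in both libraries, 2740 bp for replicate 1 only and 2300 bp for replicate 2 only. The smallest distance over all classes was 2 bp, and 367 regions outside the stretch lay within 1000 bp.

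Of the 884 regions outside the stretch within 10000 bp of an E14.5 peak, 417 (47.2%) had as their nearest E14.5 region one that also had an E18.5 peak. Of all regions with an E14.5 peak, 7398 had one at E18.5 too, while 3892 in both E14.5 libraries and 12112 in a single one did not. For 36 of the 46 regions in both libraries that lay within 10000 bp of an E14.5 peak (78.3%), the nearest E14.5 region also had an E18.5 peak. For regions in replicate 1 only the share was 45.6%, and for replicate 2 only 45.1%. E14.5 peaks flanked the region on both sides within that distance in 45.7%, 41.0% and 41.7%.

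**Figure D2:**
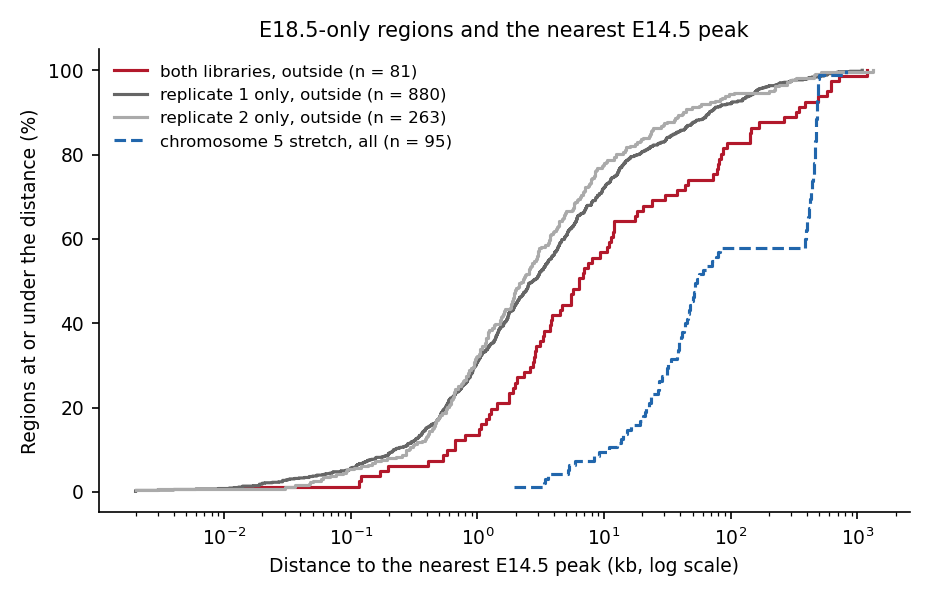
Share of E18.5-only regions (vertical, %) at or under a given distance to the nearest E14.5 peak (horizontal, kb, log scale), for regions in both E18.5 libraries (n = 81), in replicate 1 only (n = 880), in replicate 2 only (n = 263) and for all 95 regions of the chromosome 5 stretch. The curves for single libraries rise first, with medians of 2740 and 2300 bp, and the curve of the stretch rises last.

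Regions in both libraries fell into bands of distance. There were 11 under 1000 bp from an E14.5 peak, 35 from there to 10000 bp, 21 from there to 100 kb, and 14 beyond 100 kb. Of these last 14, 3 had the start site of a protein-coding gene within 3000 bp, namely Dkk2, Adgrl3 and Lrrc8d, and 10 had a fold enrichment of 2.5 or more in at least one E18.5 library.

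By sequence, the regions outside the stretch were poor in CpG. Those in both libraries had a median GC content of 45.6% and 10.9 CpG per kb, with a median observed-to-expected CpG ratio of 0.219. Regions in all 4 libraries had 49.0%, 19.6 CpG per kb and 0.328, and regions in a single E14.5 library had 45.7%, 9.38 CpG per kb and 0.187. The E18.5-only regions of single libraries had 9.38 and 10.3 CpG per kb. The median share of bases soft-masked as repeats was 20.4% for the 81 regions, 15.4% and 15.8% for the single-library classes and 16.8% for regions in all 4 libraries.

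Relative to GENCODE genes, 45 of the 81 regions (55.6%) overlapped a gene, 11 (13.6%) touched an exon, 36 were intergenic and 20 (24.7%) lay within 3000 bp of a start site, 16 of them of a protein-coding gene. In replicate 1 only, 184 of 880 (20.9%) lay near a start site, and in replicate 2 only 54 of 263 (20.5%). Of the regions in all 4 libraries 71.9% did, of those in both E14.5 libraries only 39.2%, and of those in a single E14.5 library 23.4%. The share of E18.5-only regions near a start site was therefore nearest to that of regions seen in a single E14.5 library. The classes differ in width, and these shares were not adjusted for it.

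The region with the highest mean percentile belonged to an isolated run on chromosome 1. Between 35516690 and 35541071, 24.4 kb held 9 E18.5-only regions, 4 of them in both libraries, and no E14.5 peak. Replicate 1 had 8 peaks there covering 10483 bp, and replicate 2 had 5 covering 4765 bp. The nearest E14.5 peak was 63325 bp from the closest of the 9, and the nearest annotated start site was 110226 bp away. The strongest, chr1:35530645-35531627, had a fold enrichment of 3.91 in replicate 1 (percentile 79.7) and 4.09 in replicate 2 (percentile 71.8). The widest, 5022 bp, had 3.41 and 3.61. The run was not repeated sequence, since 99.1% of its 100 bp pieces matched 1 place in the genome.

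Dkk2 encodes a secreted Dickkopf protein that modulates Wnt signalling, a pathway that patterns the dermis and its hair follicles. Its start site was covered by a region of 2321 bp, chr3:132084870-132087190, with fold enrichments of 3.49 and 3.59 (percentiles 60.5 and 37.4). The E18.5 peaks covered 2284 and 2301 bp near the gene's start sites and the E14.5 peaks 0 and 0 bp. The nearest E14.5 peak lay 346307 bp away. The −log10 q values were 3.66 and 2.87.

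Bnc2, the gene of the zinc finger protein basonuclin 2, held 9 E18.5-only regions along 400 kb and no E14.5 peak in either library. One of them, chr4:84673857-84674378, was in both E18.5 libraries with fold enrichments of 3.19 and 3.63 and lay 618 bp from a start site. Over the gene, replicate 1 had 8 peaks (4.99 kb) and replicate 2 had 2 (0.919 kb), so most of the regions rested on replicate 1. The nearest E14.5 peak was 30032 bp from the region in both libraries.

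**Figure D3:**
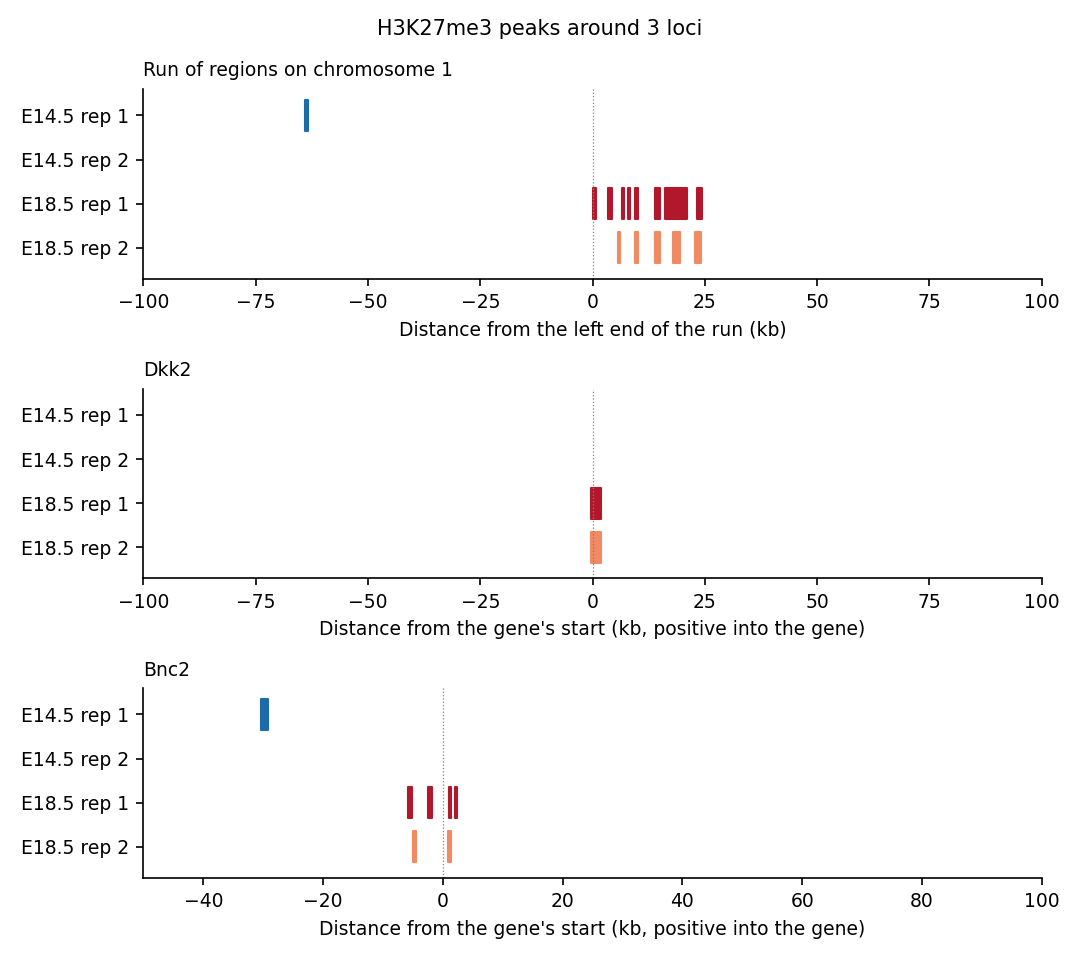
H3K27me3 peaks of each library (bars, one row per library) around the run on chromosome 1, Dkk2 and Bnc2, by distance in kb from the left end of the run or from the gene's outermost annotated start. E18.5 peaks lie at 0 or close to it in each panel, and the E14.5 rows hold 1 peak around the run, 0 around Dkk2 and 1 upstream of Bnc2.

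Adgrl3, an adhesion G protein-coupled receptor of the latrophilin family, had a region of 1403 bp at chr5:81021651-81023053 that touched a start site. Its fold enrichments were 3.42 and 3.43 (percentiles 55.0 and 21.4), it held 60 CpG, and the nearest E14.5 peak was 720414 bp away. Lrrc8d, a subunit of volume-regulated anion channels, had a region of 590 bp, chr5:105700916-105701505, with 3.15 and 3.65 and 168337 bp to an E14.5 peak. Erc2, a scaffold of the presynaptic active zone, had one of 437 bp inside the gene at a start site, with 3.43 and 3.70 and 23835 bp to an E14.5 peak. For all 3 genes the E14.5 lists held no peak within 3000 bp of any start site. The −log10 q values were 3.28 and 2.55 at Adgrl3, 2.49 and 2.92 at Lrrc8d, and 3.57 and 3.15 at Erc2.

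In all, 17 protein-coding genes had a region in both E18.5 libraries, outside the stretch, within 3000 bp of a start site. At 10 of them, neither E14.5 library had a peak in that window: Dkk2, Adgrl3, Lrrc8d, Erc2, Bnc2, Ifitm10, Spaca7, Ubd, Aida and Brox. Ifitm10, of the interferon-induced transmembrane family, had 2 such regions, of 2621 and 803 bp, with the nearest E14.5 peak 6770 bp from the first. The acrosomal gene Spaca7 had one of 850 bp that stood 3753 bp from an E14.5 peak and held 4 CpG. Ubd, a ubiquitin-like modifier, shared its region of 1359 bp with the olfactory receptor gene Olfr94, at 61.8 CpG per kb. Within 3000 bp of the start of Ubd the peaks covered 553 bp in E18.5 replicate 1 and 0 bp in replicate 2, so that window was marked in replicate 1 alone. At Olfr94, E14.5 replicate 2 had 6 bp of a peak in the window. Aida and its neighbour Brox, an ESCRT-related gene, shared a region of 367 bp with the lowest fold enrichment of the 81, 1.50 and 1.73.

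The other 6 genes were already marked in both E14.5 libraries, and the E18.5-only region lay beside that mark. They are the potassium channel gene Kcnq5, the transcription factor gene Csrnp3, the Polycomb group gene Sfmbt2, the microtubule-severing gene Fign, the threonine dehydrogenase gene Tdh and Cdc20b, whose neighbours within 3000 bp of the region include the miR-449 genes. At Csrnp3 the region, chr2:65845675-65846157, lay 121 bp from an E14.5 peak and had fold enrichments of 3.92 and 3.58. At Kcnq5 the distance was 799 bp, at Cdc20b 662 bp, at Tdh 573 bp, at Fign 2616 bp and at Sfmbt2 14 bp. At Tdh the E14.5 peaks covered 8838 and 6024 bp near the start sites and the E18.5 peaks 4749 and 4942 bp. A region counted as E18.5-only can therefore stand at a gene whose marked length was greater at E14.5.

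Over all classes, 158 of 20807 protein-coding genes (0.759%) and 292 of 51229 genes of any kind (0.570%) had an E18.5-only region within 3000 bp of a start site. Of the 148 such coding genes outside the stretch, 93 had an E14.5 peak in the same window, 70 of them in both E14.5 libraries, and 55 had none. Among the 131 that rested on single-library regions, 86 had an E14.5 peak there. The 55 without one include 10 with a region in both E18.5 libraries, named above, and 45 that rest on a single library.

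Regulatory gene families that Polycomb commonly marks in mouse cells were counted at these start sites. Against the 0.759% of all protein-coding genes, 0 of 39 Hox, 0 of 41 Fox, 0 of 12 Tbx, 0 of 19 Wnt and 0 of 67 protocadherin genes had an E18.5-only region within 3000 bp, and neither did any of 110 keratin and keratin-associated protein genes. The counts were 1 of 18 Sox genes (Sox11), 1 of 9 Pax genes (Pax5), 1 of 42 collagen genes (Col26a1), 1 of 385 Zfp genes (Zfp799) and 3 of 92 Kcn genes (Kcnk1, Kcnq5 and Kcnv2). Of these, Kcnq5 alone had its region in both E18.5 libraries. Pax5, Col26a1, Kcnk1 and Kcnq5 had peaks in the same window in both E14.5 libraries. Among gene families of repeated clusters, 0 of 327 vomeronasal receptor genes, 0 of 22 Mup genes, 0 of 64 defensin genes and 2 of 1128 Olfr genes had one, while 3 of 10 Speer genes did, all inside the chromosome 5 stretch. Of 20 embryonic and progenitor genes 1 had one (Sox11), and of 14 extracellular matrix and late dermal genes 0 did. With so few genes in each family, these counts describe the lists and are not set apart from the background.

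The remaining regions with high percentiles in both libraries lay in genes or far from them. Zfhx3, a zinc finger homeobox gene, held 16 E18.5-only regions in 1020 kb, 4 of them in both libraries, among 27 and 23 E14.5 peaks and 37 and 22 E18.5 peaks. The strongest of those 4, chr8:108819917-108821858, had fold enrichments of 3.53 and 3.77 and lay 3315 bp from an E14.5 peak. Nos1ap, an adaptor of neuronal nitric oxide synthase, had one of 2590 bp (3.40 and 3.89), 1240 bp from an E14.5 peak. Npas3, a bHLH-PAS transcription factor gene, had one of 1226 bp (3.48 and 3.72) at 7469 bp. The noncoding genes Gm35419 and Gm36243 held regions of 3306 and 3347 bp. The region on chromosome 9 at 85889390, 1318 bp wide, had 3.61 and 3.93, lay 575432 bp from an E14.5 peak and had as its nearest start site that of 9330154J02Rik. The one in Zfp697, 747 bp with 3.43 and 3.80, had no 100 bp piece that matched 1 place.

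Some genes held several E18.5-only regions. Outside the stretch, 324 of 20807 protein-coding genes overlapped at least one, 264 of them a single region, 29 overlapped 2 and 31 overlapped 3 or more. These counts were not adjusted for gene length, which was 1020 kb for Zfhx3, 913 kb for Wwox and 40.8 kb for Sprr2a2. Nor were they adjusted for the E14.5 peaks in a gene, 27 and 23 in Zfhx3 and 0 and 0 in Bnc2. After Zfhx3, the counts were 9 in Bnc2 and Megf11, 7 in Tox2, Unc13b and Sprr2a2, and 6 in Wwox, Lgr6 and Hs3st3a1, genes picked for mention by these counts. Tox2, a transcription factor gene with an HMG box, held 2 in both libraries and the widest of the 81, 6228 bp at chr2:163229801-163236028. In Tox2, peaks covered 19 and 15 kb at E14.5 against 27 and 14 kb at E18.5. In Wwox they covered 29.7 and 14.7 kb at E14.5 against 32.6 and 17.3 kb at E18.5, and in Unc13b 16 and 6.01 kb against 13.9 and 6.19 kb. The stages overlapped in covered length in all 3 of these genes.

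Outside the stretch, runs of regions within 20 kb of each other numbered 945, of which 798 were single regions and 31 held 4 or more, 169 regions in all. The largest count outside the stretch was 13, on chromosome 1 from 184640720 to 184706678, with 4 in both libraries and 3 and 0 peaks at E14.5 against 14 and 6 at E18.5. A run at the Sprr2a genes on chromosome 3, which encode proline-rich proteins of the cornified envelope, held 12 regions in 57.4 kb, and 7 of them overlapped Sprr2a2. Within this run, E14.5 peaks covered 6401 and 0 bp and E18.5 peaks 16396 and 4202 bp. Of the 100 bp pieces of those 12 regions, 0.971% matched 1 place, so a read there may match more than one copy of the gene.

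The strongest regions of single libraries lay mainly in repeats. Of the 10 strongest, 5 from each library, 7 were wholly soft-masked and in 6 no 100 bp piece matched 1 place. In replicate 1 these were the regions in Mipol1 (241 bp, percentile 97.6), Gm29141 (194 bp, 90.9) and Gm27211 (218 bp, 87.1), one nearest to Gm25860 (196 bp, 88.0) and one nearest to Gm32281 (226 bp, 83.9). The last was not repeated, and lay 3 bp from an E14.5 peak. In replicate 2 they were the regions near 2010315B03Rik (210 bp, 98.6), Gm4849 (218 bp, 93.0), Sox11 (697 bp, 92.6), Gm24187 (211 bp, 85.6) and Pax3 (206 bp, 85.5), the last 48247 bp from the gene's start.

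Sox11, which encodes an HMG-box transcription factor of embryonic mesenchyme and neurons, was the one of these 10 with a wider peak at a coding gene in unique sequence. Its region, chr12:27340621-27341317, lay within the gene, 1257 bp from the start site, with a fold enrichment of 4.89 and a −log10 q of 6.29 in replicate 2. Replicate 1 had no peak there. All of its pieces matched 1 place, it held 40.2 CpG per kb, and the nearest E14.5 peak was 28135 bp away.

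Some regions combined low fold enrichment with high significance values. In 10 of the 81 regions the fold enrichment was under 2.5 in both E18.5 libraries, from 1.50 to 2.19 in replicate 1 and from 1.73 to 2.48 in replicate 2, and no percentile exceeded 1.11. Yet their −log10 q had a median of 8.23 in replicate 1 (3.38 to 12.3) and 7.84 in replicate 2 (2.60 to 15.1). The other 71 regions had medians of 2.96 and 2.73 but reached 13.7 and 13.4, so the cut at 2.5 does not bound a distinct group. In a Poisson test of the pileup, a higher −log10 q at the same fold goes with more fragments over a higher local background. These 10 regions had a median soft-masked share of 51.4% against 17.6% for the other 71, a median distance of 87200 bp to an E14.5 peak against 4620 bp, and 1 of them against 45 lay within 10000 bp of an E14.5 peak. Of their 100 bp pieces 87.1% matched 1 place, against 94.7%. The part of repeated sequence in these calls was not tested. The region of these 10 with the highest soft-masked share, 81.1%, lies on chromosome 17, and all of its 100 bp pieces matched 1 place. It opens with a tandem repeat, in which the 10 letters found most often are in capitals.
Repeat region, chr17:13590046-13590195, plus strand: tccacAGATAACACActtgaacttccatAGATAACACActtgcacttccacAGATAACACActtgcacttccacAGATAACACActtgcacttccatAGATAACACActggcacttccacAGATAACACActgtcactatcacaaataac
The capitals recur 6 times in these 150 bases, every 23 bases. Without the 10 regions and the 13 single-library ones below that fold, 71 and 1130 regions remained outside the stretch.

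**Figure D4:**
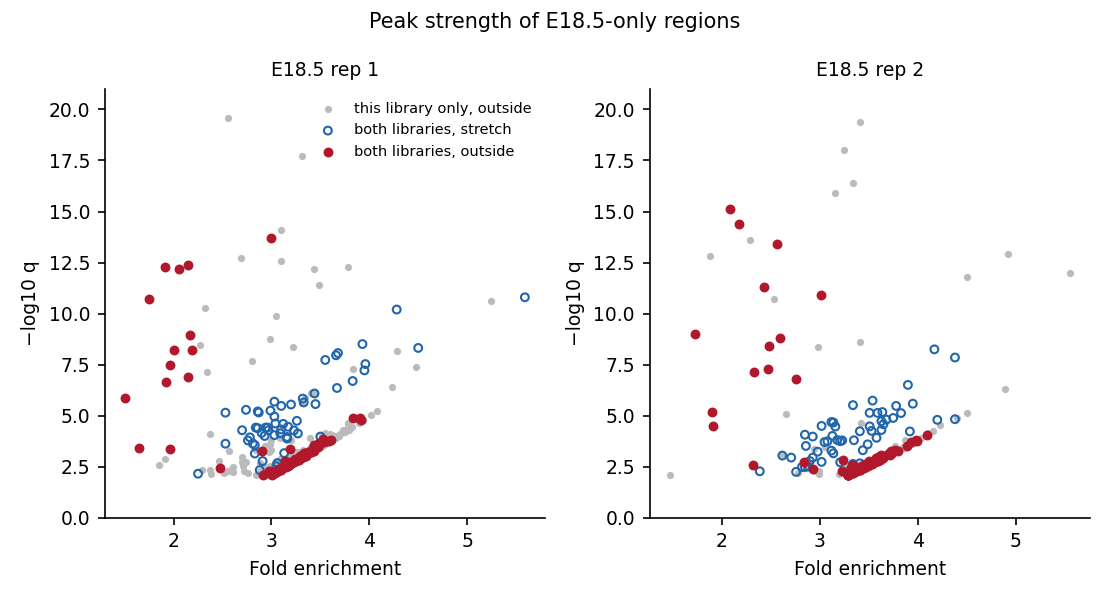
Fold enrichment (horizontal) and −log10 q (vertical) of the highest value of each E18.5-only region in E18.5 replicate 1 (left) and replicate 2 (right), for regions in that library only outside the stretch (grey), in both libraries inside the stretch (open) and in both outside it (filled). Filled points follow a line from about the threshold upwards, apart from a group above it that reaches a −log10 q of 13.7 in replicate 1 and 15.1 in replicate 2, and many open points lie above that line.

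The chromosome 5 stretch held 95 E18.5-only regions, 56 in both libraries, 35 in replicate 1 only and 4 in replicate 2 only, although its 2.60 Mb are 1.71% of the chromosome. The regions were not spread over it. They formed a block of 155 kb from 14900077 to 15054626 with 39 regions and one of 255 kb from 15459344 to 15714553 with 55, and a last region stood alone at chr5:17468149-17468961. Between the blocks lie 405 kb of which 97.6% is unknown sequence in GRCm38.

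In the first block the E14.5 libraries had 0 and 0 peaks, and the E18.5 libraries 40 and 25, covering 38.7 and 24.6 kb. In the second block the E14.5 libraries had 2 and 0 peaks (2.13 and 0 kb), and the E18.5 libraries 59 and 42 (66.7 and 43.3 kb). Every E18.5 value was above every E14.5 value in both blocks, a separation the rule itself favours. Regions covered 31.9% and 26.8% of the blocks. Elsewhere in the stretch the E14.5 peaks lay, among other places, at the noncoding gene Gm3510 and at Cacna2d1, a calcium channel subunit gene. Near the start sites of Cacna2d1, E14.5 peaks covered 3132 and 1390 bp and E18.5 peaks 1092 and 1182 bp. At Hgf, the hepatocyte growth factor gene, none of the 4 lists had a peak near a start site.

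The blocks hold 10 protein-coding genes, 3 of them of the Speer4 family by name. The first overlaps 4 protein-coding genes (Gm9758, Speer4e, Gm10354 and Gm17019) and the second 6 (Gm21149, Gm21190, Gm21083, Speer4d, 4930572O03Rik and Speer4c). Speer genes encode spermatogenesis-associated glutamate-rich proteins and are a multicopy family in the mouse. Near the start sites of all 10 genes the E14.5 lists held 0 bp. In E18.5 replicate 1 and replicate 2 the peaks covered 1578 and 1157 bp at Gm9758, 1048 and 851 bp at Speer4e, 2121 and 2440 bp at Gm21190, 2131 and 614 bp at Speer4d, and 966 and 851 bp at Speer4c. At Gm10354 and 4930572O03Rik, replicate 2 had none there. An E18.5-only region overlapped the body of 9 of the 10 genes, all but Gm10354, and Speer4c and Gm21083 held 3 each. The Speer4f1 and Speer4f2 genes, further along the stretch, had none near their start sites in the 4 lists.

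**Figure D5:**
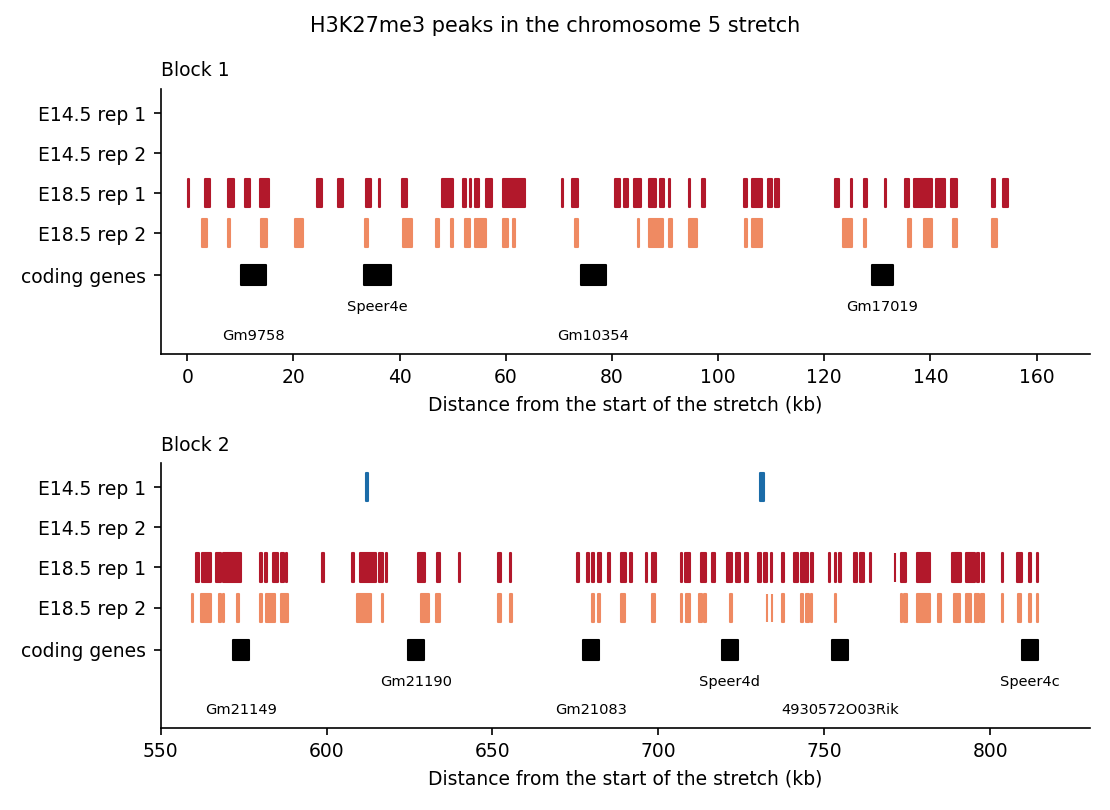
Peaks of each library (coloured bars, one row per library) and protein-coding genes (black bars) in the 2 blocks of the chromosome 5 stretch, by distance in kb from the start of the stretch. The E18.5 rows hold 40 and 25 peaks in block 1 and 59 and 42 in block 2, and the E14.5 rows hold 2 in all.

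Inside the stretch the regions in both libraries had a median width of 1360 bp and a median distance of 63200 bp to an E14.5 peak, and 4 of 56 (7.14%) lay within 10000 bp of one. They were poorer in CpG than those outside, at 4.62 per kb and an observed-to-expected ratio of 0.0972. Peaks of the stretch had a median percentile of fold enrichment of 16.5 in replicate 1 and 8.55 in replicate 2, and 41 of 91 regions with a replicate 1 peak and 30 of 60 with a replicate 2 peak were under the percentile of 10. The range was wide, since the strongest, chr5:15653198-15653553 within 4930572O03Rik, reached 99.0 and 82.0. Their −log10 q was high for their fold. For regions with a fold enrichment from 3.0 to 3.5, the median −log10 q was 4.28 in the stretch, 2.85 in the regions outside it in both libraries, 2.47 in those of single libraries and 2.80 in regions with an E14.5 peak, all in replicate 1. In replicate 2 the medians were 3.75, 2.35, 2.27 and 2.35.

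The sequence of the blocks is present in several copies. In the reference, 42.1% of the 100 bp pieces of the first block and 48.4% of the second matched 1 place, against 92.6% over the E18.5-only regions outside the stretch. Of the 95 regions, 86 (90.5%) matched another E18.5-only region at an identity of at least 90% over at least 50% of their length, against 80 of 1224 (6.54%) outside the stretch. A pair of such copies, one from each block, is shown with differing bases in capitals.
Copy in the first block, chr5:14955695-14955894, plus strand: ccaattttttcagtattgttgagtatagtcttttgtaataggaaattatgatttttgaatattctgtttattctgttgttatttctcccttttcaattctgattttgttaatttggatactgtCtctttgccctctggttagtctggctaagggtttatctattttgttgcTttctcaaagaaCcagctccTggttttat
Copy in the second block, chr5:15694728-15694927, plus strand: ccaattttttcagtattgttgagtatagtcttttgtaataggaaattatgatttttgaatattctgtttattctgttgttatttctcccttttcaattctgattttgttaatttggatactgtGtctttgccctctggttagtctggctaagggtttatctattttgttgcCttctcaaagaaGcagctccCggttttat
These 200 bases differ at 4 positions, and the regions they come from, 3224 and 3786 bp wide, aligned over 3240 bases at 96.8% identity. Of the bases of these 2 regions, 93.8% and 93.4% were soft-masked as repeats, against a median of 31.6% over the 95 regions. The pair is therefore not typical of the stretch, and the part of such repeats in its likeness was not tested. The first had fold enrichments of 2.83 and 2.86 and the second 3.23 and 3.59. A read of such sequence can be placed in more than one copy, so the 95 regions are not 95 independent places, and the length marked in a given copy is uncertain. Of the 95 regions, 34 had at least 50% of their pieces matching 1 place. Whether copy number, read placement or the mark itself differed between the libraries was not tested.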

How the data were processed

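The 4 libraries were H3K27me3 ChIP-seq of wild-type dermal fibroblasts, grouped by the stage in the sample labels. Per the labels, the authors used Bowtie2 2.3.5.1, SAMtools 1.9, MACS2 2.2.7.1 and deepTools 3.5.1 with the build mm10, and the study's methods give broad peak calling at a q-value threshold of 0.01, a list for each library. The control of the peak call and any filter on mapping quality are not given in the sources used here. The labels and the methods also differ in medium, shearing and library kit. The methods mention subsampling of some E18.5 samples to a nominal read depth equal to that of other samples. It is unclear whether these libraries were among those subsampled. An input library is labelled and was not analysed here.

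The deposited lists give for every peak its fold enrichment (pileup over local background) with −log10 p and −log10 q, all from MACS2. These values were used only within a list. The depth of each library is not given, and no interval that needs it was computed.

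Peaks overlapping by at least 1 bp were merged on chromosomes 1 to 19, and percentiles were ranks in the whole list of a library. Genes came from GENCODE vM21 (51229 genes on these chromosomes, 20807 protein-coding). Sequence came from RefSeq GRCm38.p6, the same assembly as mm10. To find multicopy sequence, pieces of 100 bp were mapped to the genome (minimap2 2.31-r1302), and those with mapping quality 30 or more counted as matching 1 place. Pieces with a lower quality or no alignment did not. Regions were compared with blastn 2.17.0+. The code ran on Python 3.11.15, pandas 2.3.3 and scipy 1.17.1 and was tested on simulated data, where 100% of 4000 planted regions got their class. No test across regions was run, because presence in these lists chose them.

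The members, gene lists and markers were chosen with earlier results of these data known. The genes named by rule are the protein-coding genes at the start sites of regions in both E18.5 libraries outside the stretch, the genes at the 10 strongest such regions and at the 5 strongest of each single-library class, and the protein-coding genes overlapped in the stretch. Megf11, Tox2, Unc13b, the Sprr2a genes, Wwox, Lgr6 and Hs3st3a1 were named after their counts were seen, as were Cacna2d1, Hgf, Gm3510 and Gm10354 for their place in the stretch. One of the marker lists is not reported here.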

Additional observations from a re-analysis of the deposited data

How the results depend on the processing

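Of 98 values under 19 alternatives, 43 stayed within 1.5 times the count or within the 95% interval of the share or median, and 55 moved. These intervals take regions or pieces as independent, which runs and copies are not. They serve as a scale for the size of a shift and do not measure the spread between libraries. With only peaks of −log10 q of at least 3, regions in both E18.5 libraries outside the stretch numbered 39 and in a single library 434, with a median width of 362 bp, a median distance of 9360 bp and 51.0% within 10000 bp of an E14.5 peak. At 5 the counts were 16, 91 and, in the stretch, 36, with 252 bp, 137000 bp and 12.1%. At 5 with whole E14.5 lists they were 12, 41 and 35, with 216 bp, 93800 bp, 13.2% and 11.3% near a start site. With peaks of at least 1000 bp they were 34, 159 and 42, with 1320 bp, 11500 bp and 46.6%. With lists of equal length, 290 were in both libraries, with 574 bp, 24.7% near a start site, 18200 bp and 39.7%. With merging within 3000 bp the counts were 50, 462 and 35, with 13600 bp and 40.6%. With E14.5 counted as absent below 25% of the length, the distance was 1950 bp and the share 75.6%. Leaving out each library in turn gave 111 to 967 regions in both libraries (without an E18.5 library, all those of the other, 366 without replicate 1 and 967 without replicate 2), 1335 to 2677 in one, widths of 478 to 505 bp, 21.4 to 23.6% near a start site, distances of 2690 to 4260 bp, 62.3 to 74.3% within 10000 bp and 67 to 99 in the stretch. E14.5 replicate 1 moved the counts most of the E14.5 libraries, to 239 and 2677, with a distance of 4260 bp. The share near a start site was 9.80% in a window of 1000 bp, 46.6% in one of 10000 bp and 12.4% for protein-coding genes. The share of pieces matching 1 place outside and inside the stretch was 93.4% and 50.3% at a mapping quality of 10. It was 13.7% and 6.72% for pieces of 50 bp, and 95% and 65.9% for pieces of 200 bp. A piece with no alignment counted as not matching 1 place. Unaligned pieces were not counted apart, so the low shares for 50 bp are not a measure of repeated sequence. Of 2 alternatives chosen after seeing the data, leaving out regions with under 50% of their pieces matching 1 place left 34 in the stretch, and leaving out those of low fold moved no value. Beyond what an alternative itself removes, the cause of each shift was not tested. No paired analysis was possible because presence in a list is not a test, and nothing in the labels ties same-numbered libraries together.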

Other observations

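The rule covered chromosomes 1 to 19. On chromosome X, 0 E18.5-only regions were in both libraries, 1 was in replicate 1 only and 3 in replicate 2 only, of 1077 merged regions. The E14.5 lists held 179 and 1035 peaks on X, and the E18.5 lists 69 and 58. On chromosome Y, 2 of 32 regions were in both E18.5 libraries only, 13 in replicate 1 only and 6 in replicate 2 only, with 11 and 2 E14.5 peaks against 20 and 13 at E18.5. The sex of the embryos behind each library is not given in the sources used here.

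Outside the stretch, E18.5-only regions numbered from 25 to 119 per chromosome, and from 0.241 to 0.883 per Mb, with chromosome 13 the lowest and chromosome 9 the highest by length. As a share of all regions with an E18.5 peak on the chromosome, they ran from 9.48% on chromosome 13 to 20.6% on chromosome 1, leaving chromosome 5 aside. On chromosome 5 the value was 8.68%, but there all regions with an E18.5 peak include the stretch and the E18.5-only ones do not. That value is therefore not comparable with the others.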
